A study of Homo sapiens with 6 samples.

Results

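The 38 genes described here encode the proteins of glucose uptake, glycolysis and its control, the pentose phosphate pathway, the use of pyruvate and the export of lactate. They were chosen by gene symbol, with earlier results of these data known, and all 38 were among the 19977 symbols of the expression table. Expression was measured in U2OS cells, an established line from a human osteosarcoma. Cells received a non-targeting control siRNA (siCtrl, 3 libraries) or an siRNA against NUDT5 (siNUDT5, 3 libraries) and were harvested 48 hours later. All 6 libraries came from cells with no other treatment, grown in Dulbecco's modified Eagle's medium with fetal bovine serum. Both groups are the same line, so the transfected siRNA is the labelled difference. Whether siNUDT5 was a single siRNA or a pool, and the glucose content of the medium, were not given in the sources used here. NUDT5 is an ADP-ribose-cleaving enzyme of the NUDIX family, and the comparison asks how expression differs when it is lowered.

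Cells take up glucose through transporters of the SLC2A (GLUT) family, and hexokinases trap it as glucose 6-phosphate. Upper glycolysis spends ATP to make and split fructose 1,6-bisphosphate, lower glycolysis recovers ATP and NADH, and its end product pyruvate is either reduced to lactate and exported or oxidised in mitochondria by the pyruvate dehydrogenase complex. The pentose phosphate pathway branches from glucose 6-phosphate and supplies NADPH and ribose 5-phosphate. Many steps have several isozymes that differ in kinetics, regulation and tissue distribution, and tumour cell lines commonly express glycolytic genes at high levels.

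Values are TPM, a transcript level scaled for transcript length and library total, so that levels of different genes can be set side by side. Differences are log2 changes of TPM + 1, siNUDT5 minus siCtrl, from a limma fit over the 12236 genes that reached 1 TPM on average. The threshold was an adjusted p under 0.05 (Benjamini-Hochberg) over all genes tested. TPM keep no total depth, but steps between low values gave relative depths of 64.1% to 118% of siCtrl 1, with siCtrl 2 the shallowest. siCtrl 2 also stood apart in expression, with a median absolute log2 difference of 0.296 and 0.227 from the other control libraries, against 0.0967 to 0.134 in the remaining within-group pairs. Between groups the difference was 0.184 to 0.234 for siCtrl 1 and siCtrl 3, and 0.242 to 0.326 for siCtrl 2. So siCtrl 2 lay further from siCtrl 1 than siCtrl 1 or siCtrl 3 lay from any siNUDT5 library. Among the 38 genes siCtrl 2 was the lowest of all 6 libraries in 20 and the highest in 8. The labels do not say whether the libraries of a group are separate cultures, so each p-value reflects only how far these libraries spread, and that spread may be technical.

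NUDT5 itself stood at 46.2, 49.0 and 52.0 TPM in siCtrl and at 3.04, 2.74 and 2.67 TPM in siNUDT5. The knockdown libraries held 5.74% of the control mean (log2 change -3.71, SE 0.0982, limma adjusted p = 1.32e-06; exact two-sided permutation p = 0.1, the smallest that 3 against 3 allows). Of 10 osteoblast lineage and mesenchymal markers, VIM, SPARC and COL1A1 were abundant, SP7 was listed at 0 in all libraries, and COL1A2, BGLAP and IBSP were near 0. The markers summed to 4084 to 4378 TPM in siCtrl and to 4780 to 4884 TPM in siNUDT5, with ALPL higher and SPP1 lower by the test. VIM made up most of that sum (means of 3115 and 3551 TPM) and did not pass (limma adjusted p = 0.0551). RUNX2 did not pass either, with means of 8.82 and 12.2 TPM (limma adjusted p = 0.0752). Of 5 epithelial markers EPCAM fell, and the 5 summed to 19.1 to 21.2 TPM in siCtrl and to 15.6 to 16.3 TPM in siNUDT5. Among the leukocyte markers CD3E was listed at 0 in all libraries, and PTPRC, CD14 and LYZ were below 1 TPM in each. The part of these marker differences in the results below was not tested, and in bulk RNA fewer cells of a type and less RNA per cell cannot be told apart.

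In the knockdown libraries the glucose transporter gene SLC2A3 and the mutase gene PGAM1 stood more than 3-fold above the controls. Smaller rises passed the test in other genes, while GAPDH, ENO1, PKM and LDHA did not pass it. Of the 38 genes, all of which passed the filter on low values, 9 rose (23.7%), namely SLC2A3, HK1, PFKM, PGK1, PGAM1, ENO2, LDHB, PDHB and PGM1. In all genes tested 10.9% rose. PFKFB2 and PDK3 fell (5.3%, against 5.20% of all genes), so that 28.9% of the pathway genes passed against 16.1% of all genes. The groups did not overlap in 18 of the 38 genes (47.4%, against 37.3% of all genes), with siNUDT5 higher in 15 (39.5%, against 24.3%) and lower in 3 (against 12.9%). The median log2 change was 0.09 over the 38 genes and 0.05 over all genes tested. Because the genes were chosen with earlier results of these data known, these comparisons with all genes are a description only.

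Among these genes rises also outnumbered falls under both other scalings, but by less. With median-ratio scaling of the libraries 6 of the 38 genes rose and 3 fell, and over all genes 1041 rose and 895 fell, in place of 1334 and 636. With quantile normalization 7 of the 38 rose and 3 fell, and over all genes 1018 rose and 965 fell. Counts also changed when 1 library was left out. Without siCtrl 2, 11 of the 38 rose and 3 fell, and 2672 and 1132 of all genes did. Without siCtrl 3, or without any 1 siNUDT5 library, the 4 genes SLC2A3, HK1, PGAM1 and ENO2 still rose and no gene fell by the limma test, with 3 of the 38 lower at an unadjusted p under 0.05. The calls over all genes dropped as well, to 592 higher and 276 lower without siCtrl 3, and to 520 to 551 higher and 213 to 308 lower without a siNUDT5 library.

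**Figure D1:**
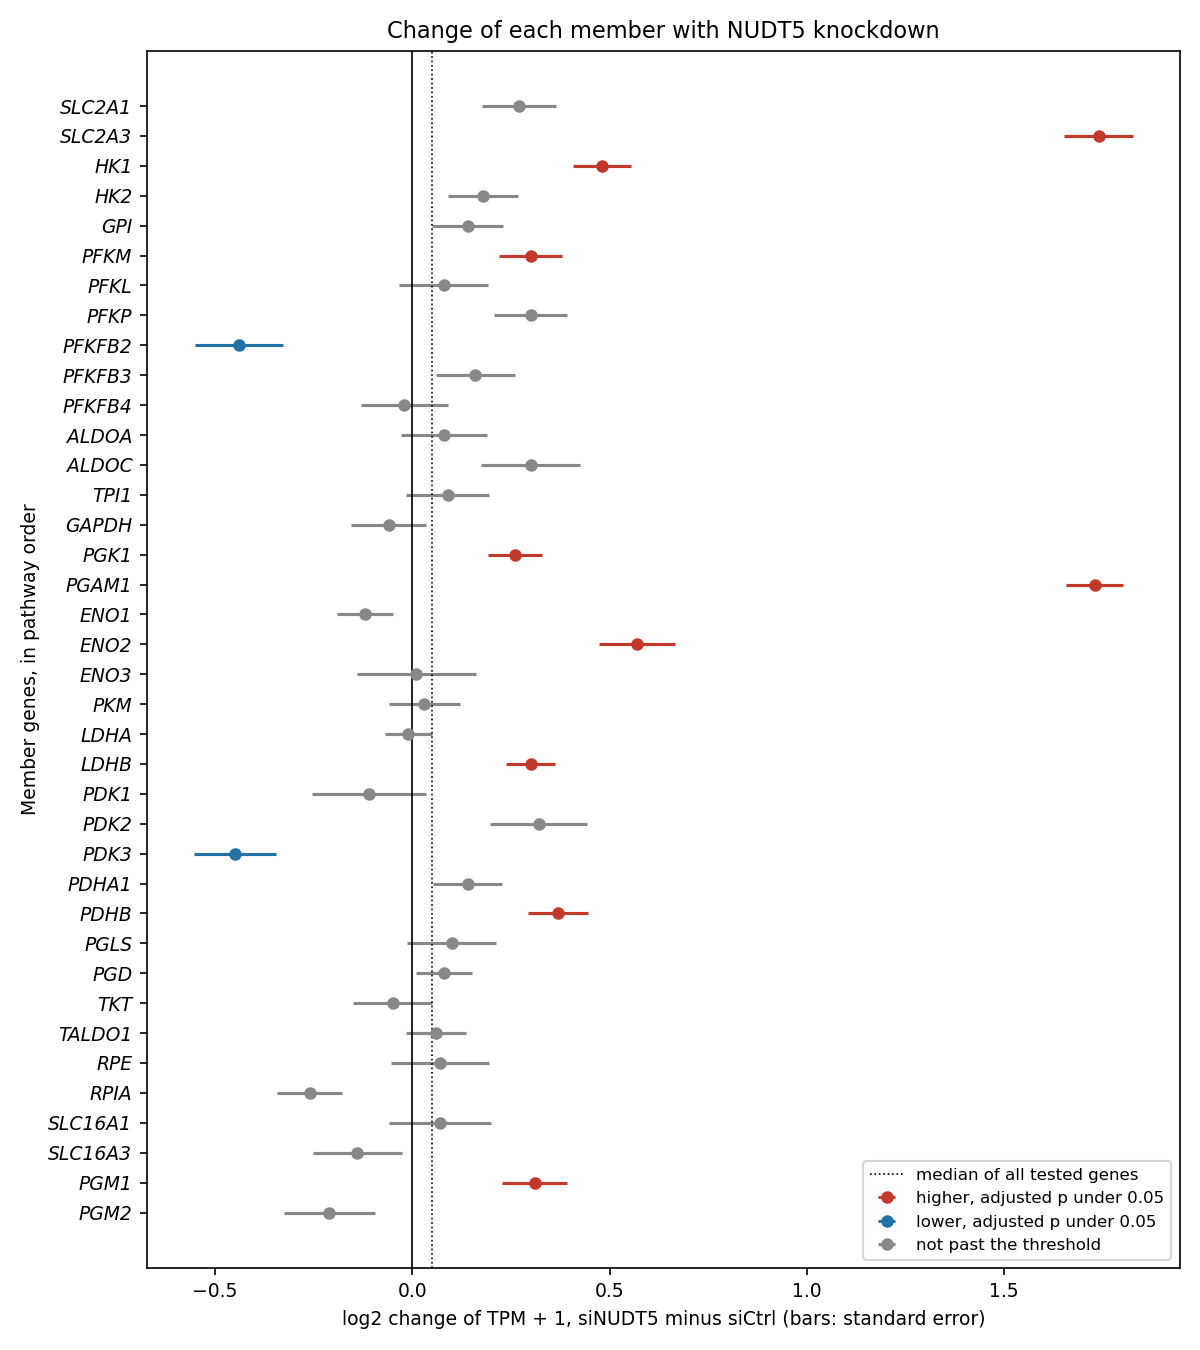
Log2 change of TPM + 1, siNUDT5 minus siCtrl, for each of the 38 genes in pathway order, with points for the fitted change, bars for its standard error and a dotted line at the median of all genes tested (0.05). SLC2A3 (1.74) and PGAM1 (1.73) lie far to the right of the other 36 genes, which lie between -0.45 and 0.57.

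In control cells the levels of the pathway genes spanned a wide range. GAPDH was highest with 5716 ± 661 TPM (SD, n = 3), followed by ENO1 (3507 ± 192 TPM), PKM (2084 ± 238 TPM), LDHA (1536 ± 48.1 TPM) and LDHB (1270 ± 42.9 TPM), and no neighbours in this order overlapped between libraries. TPI1, ALDOA, PGD and PGK1 came next, also without overlap, whereas PGK1 and TKT overlapped. The lowest were PDK1 with 3.18 ± 0.727 TPM and SLC16A3 with 1.58 ± 0.151 TPM. The 5 highest genes held 78.9% to 79.9% of the TPM of all 38 genes in siCtrl and 76.1% to 77.1% in siNUDT5. All 38 together made up 1.64% to 1.86% of all TPM in siCtrl and 1.74% to 1.90% in siNUDT5, ranges that overlapped.

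In glucose uptake and phosphorylation 2 of 4 genes rose, where 10.9% of all genes tested did. SLC2A3 encodes GLUT3, a glucose transporter of high affinity that is abundant in neurons. It stood at 15.4, 14.5 and 14.1 TPM in siCtrl and at 53.3, 50.6 and 49.5 TPM in siNUDT5. The means of 14.7 ± 0.652 and 51.1 ± 1.98 TPM (SD, n = 3 each) differ 3.49-fold, and the lowest knockdown library was far above the highest control (log2 change 1.74, SE 0.0866, limma adjusted p = 4.36e-05). Only 10 of the 12236 genes tested rose by more, since SLC2A3 ranked 11.

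SLC2A1, which encodes GLUT1, the main transporter of most cultured cells, was the more abundant of the pair in both groups. It had 89.1, 73.0 and 83.0 TPM in siCtrl and 95.2, 101 and 98.7 TPM in siNUDT5, without overlap. Its log2 change of 0.27 (SE 0.093) did not pass (limma adjusted p = 0.0861), although without siCtrl 1 it did (0.33, adjusted p = 0.0472). Together the pair summed to 96.3 ± 8.53 TPM in siCtrl and 150 ± 2.02 TPM in siNUDT5, and the GLUT3 share of that sum went from 14.7%, 16.6% and 14.5% to 35.9%, 33.4% and 33.4%. The shares do not depend on the scaling of a library.

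Hexokinases phosphorylate glucose on entry, and HK1, bound to the mitochondrial outer membrane, was the major isozyme here. HK1 had 148, 143 and 155 TPM in siCtrl and 200, 214 and 208 TPM in siNUDT5. All knockdown libraries exceeded all controls (log2 change 0.48, SE 0.0733, limma adjusted p = 0.00471). HK2, the inducible isozyme of many tumours, had 34.7, 39.3 and 35.2 TPM against 41.8, 42.6 and 39.8 TPM. Its groups did not overlap by a narrow gap, and the change of 0.18 (SE 0.0885) did not pass (adjusted p = 0.203), except without siCtrl 2 (0.24, adjusted p = 0.0356). The HK1 share of the summed hexokinase TPM was 81.0%, 78.4% and 81.4% in siCtrl and 82.7%, 83.4% and 83.9% in siNUDT5. The sum went from 185 ± 4.36 to 248 ± 7.5 TPM (SD, n = 3 each).

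**Figure D2:**
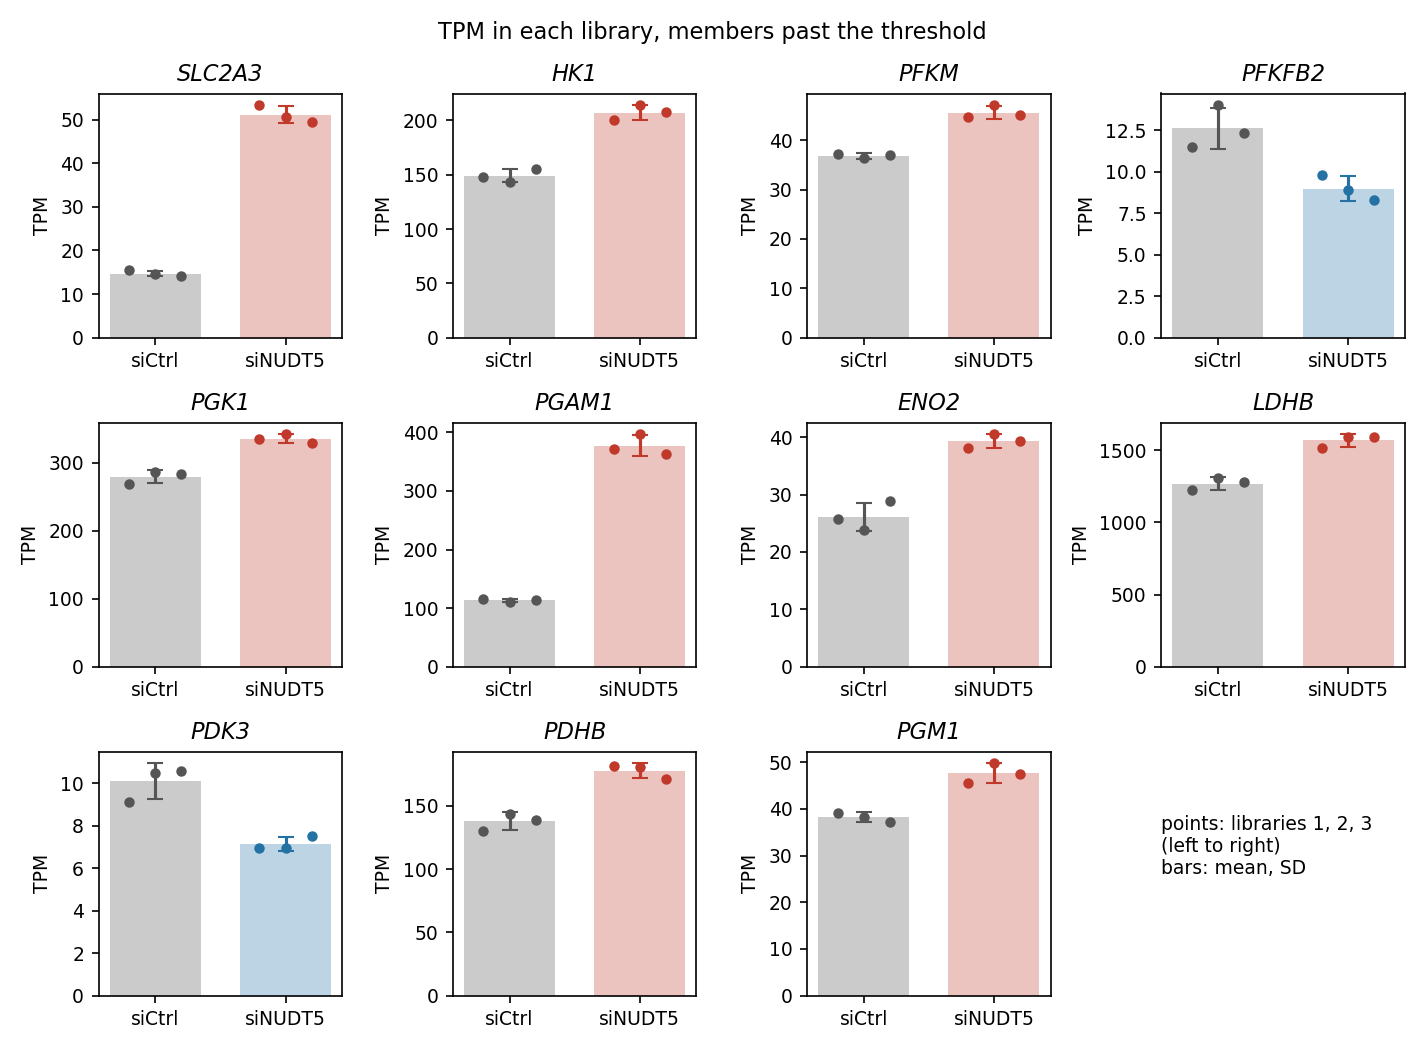
TPM (vertical axes, each from 0) of the 11 genes past the threshold in the siCtrl and siNUDT5 libraries, with points for libraries 1 to 3 from left to right, bars for the mean and whiskers for the SD. In each of the 11 panels the points of the groups do not overlap. Relative to the control mean the distance is widest in SLC2A3 (14.7 against 51.1 TPM) and PGAM1 (113 against 377 TPM).

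Of the 10 genes of upper glycolysis and its control, PFKM rose (10.0%, against 10.9% of all genes tested) and PFKFB2 fell (10.0%, against 5.20%). Phosphofructokinase commits fructose 6-phosphate to glycolysis, and its muscle-type subunit PFKM had 37.3, 36.3 and 36.9 TPM in siCtrl against 44.6, 47.1 and 45.2 TPM in siNUDT5. The groups were well apart relative to their spread (log2 change 0.30, SE 0.0791, limma adjusted p = 0.0355). It did not pass when siCtrl 1, siCtrl 3 or any 1 siNUDT5 library was left out (adjusted p = 0.0539 to 0.163), and under median-ratio scaling (0.0703) and quantile normalization (0.0811), with the same direction each time. The platelet-type subunit PFKP had 37.5, 33.6 and 39.9 TPM against 44.7, 47.5 and 44.9 TPM, also without overlap. Its log2 change equalled that of PFKM at 0.30 (SE 0.0933) and did not pass (adjusted p = 0.0621), while without siCtrl 2 it did (0.23, adjusted p = 0.0378). The liver-type subunit PFKL overlapped, with 49.1, 40.4 and 47.0 TPM against 43.5, 54.0 and 47.5 TPM (log2 change 0.08, SE 0.113, adjusted p = 0.661).

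The PFKFB enzymes make and break fructose 2,6-bisphosphate, the strongest allosteric activator of phosphofructokinase. PFKFB2, the heart-type enzyme, had 11.5, 14.0 and 12.3 TPM in siCtrl and 9.80, 8.87 and 8.28 TPM in siNUDT5. Every knockdown library was below every control (log2 change -0.44, SE 0.112, limma adjusted p = 0.0312), but the call was lost with no filter on low values (0.0564), without siCtrl 3 and without any 1 siNUDT5 library (0.0663 to 0.135). PFKFB3, whose kinase activity far exceeds its phosphatase activity, had 28.1, 25.7 and 30.7 TPM against 33.6, 31.0 and 29.6 TPM, an overlap of 1 library (0.16, SE 0.10, adjusted p = 0.33). PFKFB4 did not differ beyond its spread, with 6.85, 5.69 and 6.61 TPM against 6.70, 6.12 and 5.94 TPM (-0.02, SE 0.11, adjusted p = 0.916). The summed TPM of these enzymes was alike, 47.1 ± 2.21 against 46.6 ± 3.15 TPM (SD, n = 3 each), while the PFKFB2 share went from 24.8%, 30.8% and 24.8% to 19.6%, 19.3% and 18.9%.

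The remaining upper glycolytic genes did not pass. Glucose-6-phosphate isomerase, GPI, had 125 ± 11.7 against 137 ± 5.84 TPM (SD, n = 3 each; log2 change 0.14, limma adjusted p = 0.341). Aldolase splits fructose 1,6-bisphosphate, and its main isozyme ALDOA had 449, 355 and 434 TPM in siCtrl and 405, 479 and 418 TPM in siNUDT5. These ranges overlapped (0.08, SE 0.109, adjusted p = 0.678). ALDOC, the brain-type aldolase, was much lower, with 4.52, 3.36 and 3.90 TPM against 4.64, 5.02 and 5.52 TPM, and its groups only just separated (0.30, SE 0.126, adjusted p = 0.142). TPI1, the triose phosphate isomerase, had 735 ± 95.7 against 781 ± 51.9 TPM (0.09, adjusted p = 0.594).

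Phosphoglucomutases link glucose 6-phosphate with glucose 1-phosphate and so with glycogen and nucleotide sugars. PGM1 had 39.2, 38.3 and 37.1 TPM in siCtrl and 45.5, 49.8 and 47.5 TPM in siNUDT5, without overlap. The rise (log2 change 0.31, SE 0.0822, limma adjusted p = 0.0368) was not called without siCtrl 3 or any 1 siNUDT5 library (adjusted p = 0.0954 to 0.17), nor under median-ratio scaling (0.0747) or quantile normalization (0.0888). PGM2, which also acts on phosphopentoses, had 72.4, 96.5 and 78.1 TPM against 72.1, 65.9 and 73.1 TPM. Its value in siCtrl 2 was the highest of the 6 and its groups overlapped (-0.21, SE 0.116, adjusted p = 0.248). PGM1 made up 31.9% ± 3.36 of the pair in siCtrl and 40.4% ± 2.35 in siNUDT5 (SD over 3 libraries each).

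In lower glycolysis 3 of 7 genes rose (42.9%, against 10.9% of all genes tested), namely PGAM1, PGK1 and ENO2. PGAM1, the phosphoglycerate mutase that turns 3-phosphoglycerate into 2-phosphoglycerate, had 115, 110 and 113 TPM in siCtrl and 371, 397 and 363 TPM in siNUDT5. The means of 113 ± 2.77 and 377 ± 17.9 TPM (SD, n = 3 each) differ 3.35-fold, with tight replicates in both groups (log2 change 1.73, SE 0.0725, limma adjusted p = 2.77e-05, rank 13 of 12236). By level PGAM1 was the 18th of the 38 genes in control cells. With the knockdown its mean exceeded that of PGK1, the enzyme of the preceding step.

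PGAM1 has close relatives in the genome, and how reads shared between copies were treated was not given in the sources used here. Of the 50-base stretches in its longest GENCODE transcript, 43.12% also occur in transcripts of other genes, most in AC012085.1 (37.39%) and AC078819.1 (34.59%), followed by PGAM4 (18.7%). PGAM4 was listed at 1.43, 0.891 and 1.78 TPM in siCtrl and at 3.09, 4.83 and 4.96 TPM in siNUDT5. It too was higher in every knockdown library (log2 change 1.16, SE 0.195, limma adjusted p = 0.00663), at a level far below PGAM1. SLC2A3 shares 24.11% of its stretches, mostly with SLC2A14 (22.97%), which stood at 0.0583, 0.0455 and 0.156 TPM against 0.489, 0.296 and 0.691 TPM and was not tested because of its low level. The part of shared reads in these values was not tested. LDHB (58.5%) and ALDOA (88.11%) also share many stretches with other annotated genes, whereas HK1, PFKM, PFKFB2, PDK3, PDHB and PGM1 share none.

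PGK1, the phosphoglycerate kinase that makes the first ATP of lower glycolysis, had 268, 286 and 283 TPM in siCtrl and 335, 342 and 329 TPM in siNUDT5. The difference is small but larger than the spread (log2 change 0.26, SE 0.0677, limma adjusted p = 0.0326). It was not called without siCtrl 1, siCtrl 3 or any 1 siNUDT5 library (adjusted p = 0.0722 to 0.143), under median-ratio scaling (0.0663) or without a trend in the variance prior (0.0673). ENO2, the enolase characteristic of neurons, had 25.8, 23.8 and 28.8 TPM against 38.1, 40.5 and 39.3 TPM. It rose in all 3 knockdown libraries (0.57, SE 0.0966, adjusted p = 0.00666).

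ENO1, the major enolase, moved the other way without passing. It had 3620, 3285 and 3615 TPM in siCtrl and 3081, 3414 and 3168 TPM in siNUDT5, ranges that overlapped (log2 change -0.12, SE 0.0698, limma adjusted p = 0.271). ENO2 made up 0.737% ± 0.0444 of the summed enolase TPM in siCtrl and 1.20% ± 0.0288 in siNUDT5 (SD; 3 libraries a group), so the rise of ENO2 concerned a minor part of enolase transcripts. ENO3, the muscle enolase, had 9.80, 7.89 and 10.0 TPM against 10.2, 10.5 and 7.42 TPM (0.01, SE 0.151, adjusted p = 0.97).

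The dehydrogenase GAPDH had 6205, 4964 and 5979 TPM in siCtrl and 5120, 5833 and 5451 TPM in siNUDT5. The knockdown libraries lay inside the control range (log2 change -0.06, SE 0.0942, 95% interval -0.27 to 0.16, limma adjusted p = 0.717). PKM, the pyruvate kinase, likewise had 2295, 1826 and 2131 TPM against 2020, 2188 and 2131 TPM (0.03, SE 0.0901, 95% interval -0.18 to 0.23, adjusted p = 0.885). For both genes siCtrl 2 was the lowest library of the 6.

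Pyruvate is converted to lactate by tetramers of the LDHA and LDHB subunits, and here LDHB rose. LDHB, the subunit that favours the reverse reaction in tissues such as heart, had 1224, 1308 and 1279 TPM in siCtrl and 1518, 1595 and 1593 TPM in siNUDT5. No library overlapped (log2 change 0.30, SE 0.0624, limma adjusted p = 0.0145). The call was lost without siCtrl 3 or any 1 siNUDT5 library (adjusted p = 0.0529 to 0.0838). LDHA, a known target of MYC and HIF-1, stayed within its control range with 1497, 1589 and 1521 TPM against 1516, 1511 and 1532 TPM (-0.01, SE 0.0596, 95% interval -0.15 to 0.12, adjusted p = 0.902). The LDHB share of the pair went from 45.3% ± 0.359 to 50.8% ± 0.671 without overlap, and the sum from 2806 ± 88.8 to 3089 ± 48.1 TPM (SD, n = 3 each).

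The pyruvate dehydrogenase complex turns pyruvate into acetyl-CoA, and its E1 component consists of PDHA1 and PDHB subunits. PDHB had 130, 144 and 139 TPM in siCtrl and 182, 181 and 171 TPM in siNUDT5, without overlap. It rose (log2 change 0.37, SE 0.0763, limma adjusted p = 0.015), though not when siCtrl 3 or any 1 siNUDT5 library was left out (adjusted p = 0.059 to 0.0779). Its partner PDHA1 had 48.6 ± 3.81 against 53.6 ± 1.25 TPM (SD, n = 3 each), with overlapping libraries (0.14, SE 0.088, adjusted p = 0.309). Among the other subunits, DLAT, the E2 acetyltransferase, had 73.2, 93.7 and 74.5 TPM against 126, 108 and 113 TPM and rose (0.52, SE 0.115, adjusted p = 0.0196), but not without siCtrl 3 or any 1 siNUDT5 library (0.0519 to 0.0866). PDHX, which binds the E3 subunit, had 48.8 ± 7.53 against 64.8 ± 5.61 TPM and did not pass (0.41, SE 0.125, adjusted p = 0.0582). The E3 subunit DLD had 92.3 ± 18.7 against 102 ± 7.31 TPM (0.17, SE 0.138, adjusted p = 0.462).

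Kinases of the PDK family switch the complex off by phosphorylating PDHA1, and PDP phosphatases switch it on again. PDK3 had 9.12, 10.5 and 10.6 TPM in siCtrl and 6.94, 6.95 and 7.5 TPM in siNUDT5. It fell (log2 change -0.45, SE 0.104, limma adjusted p = 0.0237), but not without siCtrl 3 or any 1 siNUDT5 library (adjusted p = 0.0755 to 0.111). PDK2 had 16.2, 12.4 and 15.0 TPM against 17.5, 20.2 and 17.4 TPM, higher without overlap but not past the threshold (0.32, SE 0.122, adjusted p = 0.109). PDK1 was low and overlapped, with 2.5, 3.94 and 3.09 TPM against 3.08, 2.79 and 2.63 TPM (-0.11, SE 0.145, adjusted p = 0.657). The kinases summed to 27.8 ± 0.906 and 28.3 ± 1.37 TPM, while the PDK3 share went from 32.8%, 39.2% and 37.1% to 25.2%, 23.3% and 27.3%. The catalytic phosphatase subunit PDP1 had 14.3, 19.1 and 15.1 TPM against 31.0, 24.5 and 25 TPM and rose (0.70, SE 0.138, adjusted p = 0.0126), but not without siCtrl 3 or siNUDT5 1 (0.0562 to 0.0585).

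**Figure D3:**
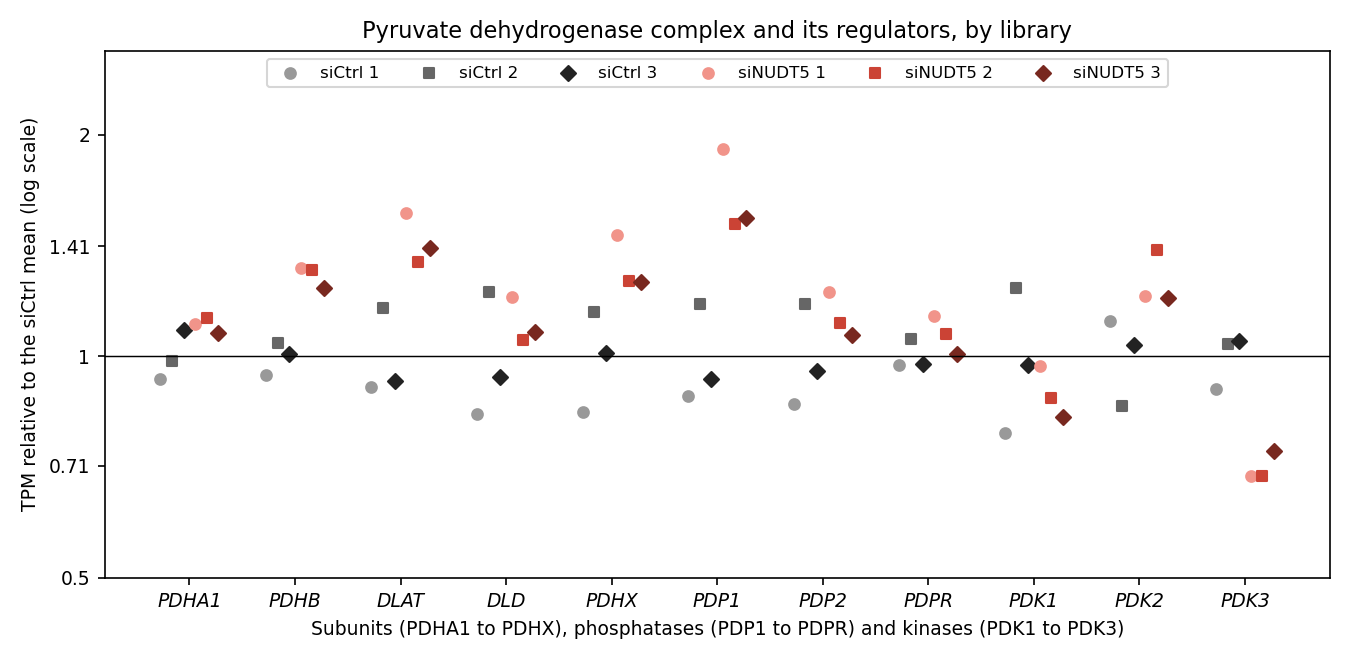
TPM of each library divided by the siCtrl mean of the gene (log scale), for subunits of the pyruvate dehydrogenase complex, its phosphatases and its kinases, with 1 point per library. The siNUDT5 points of PDHB, DLAT, PDHX, PDP1 and PDK2 lie above all siCtrl points, those of PDK3 lie below, and PDHA1, DLD, PDP2, PDPR and PDK1 overlap.

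None of the 6 pentose phosphate genes passed the limma test (16.1% of all genes tested did), and 1 of them, RPIA, had an unadjusted p under 0.05. RPIA, the isomerase that makes ribose 5-phosphate, had 114, 128 and 110 TPM in siCtrl and 98.6, 96.9 and 97.9 TPM in siNUDT5. The groups did not overlap (log2 change -0.26, SE 0.0827, adjusted p = 0.0677). RPIA fell under median-ratio scaling (-0.31, adjusted p = 0.0283), under quantile normalization (-0.32, 0.0217) and without siCtrl 2 (-0.20, 0.0418). PGD, a dehydrogenase that produces NADPH, and the highest of the 6, had 305 ± 11.7 against 321 ± 13.9 TPM (SD, n = 3 each; 0.08, adjusted p = 0.516). The lactonase PGLS, the epimerase RPE, and the transaldolase and transketolase of the non-oxidative branch, TALDO1 and TKT, had overlapping groups and changes from -0.05 to 0.10.

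Neither of the lactate exporters among the 38 genes passed the limma test, and neither had an unadjusted p under 0.05. SLC16A1, which encodes MCT1, had 128, 177 and 134 TPM in siCtrl and 163, 140 and 152 TPM in siNUDT5. The knockdown values lay inside the control range, which siCtrl 2 widened (log2 change 0.07, SE 0.129, 95% interval -0.23 to 0.36, adjusted p = 0.768). SLC16A3, which encodes MCT4, the transporter typical of strongly glycolytic cells, was barely expressed, at 1.40, 1.69 and 1.64 TPM against 1.30, 1.42 and 1.28 TPM (-0.14, SE 0.113, adjusted p = 0.435). MCT1 thus made up 98.8% to 99.2% of the transcripts of the pair in all libraries. The related SLC16A7 is outside the 38 genes and not in this share. It had 9.45 ± 2.57 against 7.11 ± 1.42 TPM (SD, n = 3 each), with overlapping groups (-0.35, SE 0.19, adjusted p = 0.246).

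The 27 genes that did not pass had log2 changes from -0.26 to 0.32, of which 18 were above 0 and 9 below, with adjusted p from 0.0621 to 0.97. In 7 of them, SLC2A1, HK2, GPI, PFKP, ALDOC, PDK2 and RPIA, the groups did not overlap. The 37.3% of all genes tested includes genes that passed, so it is no yardstick for these 27. The share among all genes that did not pass was not computed, so these 7 cannot be weighed against it.

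Shares within isozyme families do not depend on library scaling, and in a family of a pair the shares are complements, so that a separation of either is a separation of both. Family sums do depend on scaling. The families hold only genes among the 38, so the glucose transporter sum leaves out expressed relatives such as SLC2A6, SLC2A8, SLC2A10 and SLC2A12. Of 10 sums, 4 did not overlap between groups (37.3% of single genes did not), namely those of the glucose transporters, hexokinases, phosphofructokinases and lactate dehydrogenases. With median-ratio scaling the difference in the lactate dehydrogenase sum was 173 in place of 283 TPM, and that in the hexokinase sum 55.2 in place of 63.5 TPM. Phosphofructokinase TPM summed to 119 ± 7.90 in siCtrl and 140 ± 8.15 in siNUDT5 (SD over 3 libraries each). Within that family the PFKL share went from 38.1% ± 1.51 to 34.5% ± 1.77 without overlap, while the PFKM and PFKP shares overlapped. The exact two-sided permutation p was 0.1 for every share or sum without overlap, the smallest this design allows, and Benjamini-Hochberg values were at least 0.141 for the shares and 0.25 for the sums. No share or sum could therefore pass a threshold of 0.05.

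**Figure D4:**
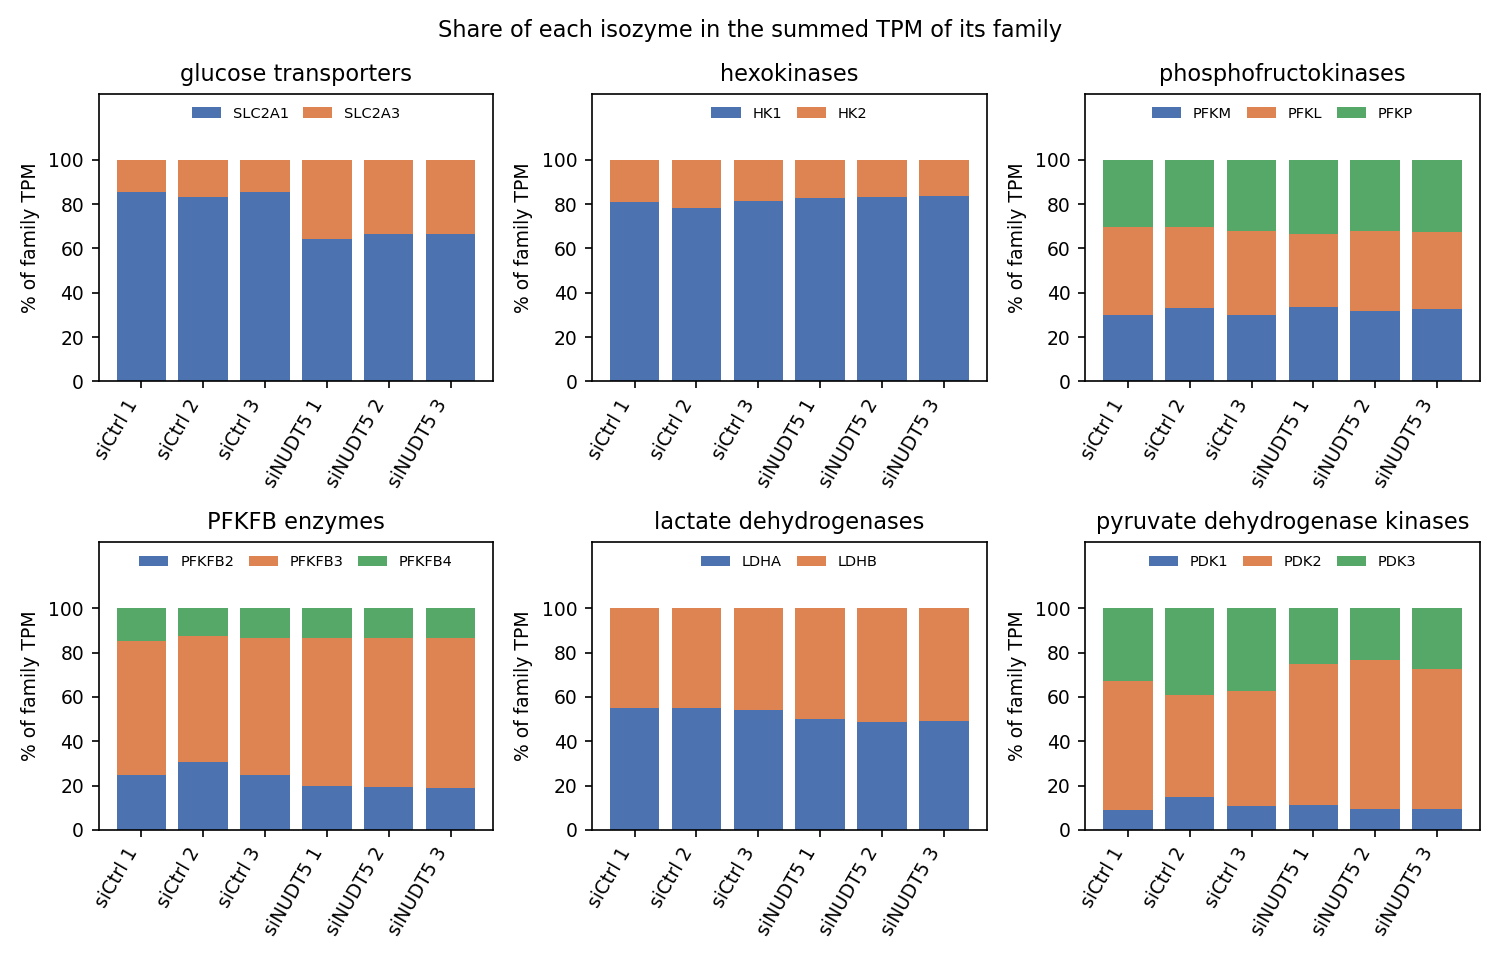
Share of each isozyme in the summed TPM of its family members among the 38 genes (percent, stacked), in each of the 6 libraries, for 6 families. The SLC2A3 share is 14.5% to 16.6% in siCtrl and 33.4% to 35.9% in siNUDT5, the LDHB share is 45.3% and 50.8% on average, and the PDK3 share is smaller in siNUDT5.

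Of 57 other genes of the same pathways, 41 could be tested, 6 rose (14.6%, against 10.9% of all genes tested) and 2 fell (4.9%, against 5.20%), with a median log2 change of 0.09. The 19.5% called is near the 16.1% of all genes. Besides DLAT and PDP1 these were the following. SLC2A12, another glucose transporter, rose from 10.5 ± 2.07 to 17.4 ± 2.82 TPM (SD, n = 3 each; 0.68, SE 0.157, limma adjusted p = 0.0223), and MINPP1, a phosphatase that also acts on 2,3-bisphosphoglycerate, from 26.9 ± 6.60 to 49.9 ± 6.80 TPM (0.88, SE 0.174, adjusted p = 0.0123). TIGAR, listed as C12orf5 and known to lower fructose 2,6-bisphosphate, rose from 153 ± 29.6 to 207 ± 5.64 TPM (0.45, SE 0.13, adjusted p = 0.0487). SHPK makes sedoheptulose 7-phosphate for the pentose phosphate pathway and had 1.62, 1.69 and 2.06 TPM against 4.27, 5.03 and 4.29 TPM. It rose (0.99, SE 0.12, adjusted p = 0.002) and did so in every alternative in which it could be tested. RBKS, the ribokinase, fell from 3.39 ± 0.191 to 2.26 ± 0.344 TPM (-0.43, SE 0.12, adjusted p = 0.0426), and PCK2, the mitochondrial phosphoenolpyruvate carboxykinase, from 53.5 ± 7.59 to 39.0 ± 3.29 TPM (-0.44, SE 0.123, adjusted p = 0.0448).

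Several of these calls were lost when 1 library was left out, while the direction of the change stayed the same. SLC2A12 was not called without siCtrl 3 or any 1 siNUDT5 library (adjusted p = 0.0562 to 0.0916), and MINPP1 not without siNUDT5 1 or siNUDT5 3 (0.0534 to 0.056). TIGAR (0.0683 to 0.151), RBKS (0.0615 to 0.151) and PCK2 (0.087 to 0.175) were called neither without siCtrl 1 or siCtrl 3 nor without any 1 siNUDT5 library. TIGAR also missed the threshold with a pseudocount of 0.1 (0.0508), with no filter (0.0798), under median-ratio scaling (0.0565), without mitochondrial genes (0.0549) and without a trend (0.0646). RBKS missed it with no filter (0.0577), and PCK2 with no filter (0.0691) and without a trend (0.0541).

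Among 11 regulators of glycolytic and glucose-responsive transcription, 9 could be tested, 2 rose (22.2%, against 10.9% of all genes tested) and 1 fell (11.1%, against 5.20%). MLX, the partner of the glucose sensors MLXIP and MLXIPL, had 51.2, 50.7 and 53.9 TPM in siCtrl and 66.2, 70.2 and 65.4 TPM in siNUDT5 (log2 change 0.37, SE 0.0794, limma adjusted p = 0.018). TXNIP, a target of these sensors that restrains glucose uptake, rose from 5.93 ± 0.394 to 8.86 ± 0.919 TPM (SD, n = 3 each; 0.51, SE 0.113, adjusted p = 0.0201). MYC, which activates many glycolytic genes, had 196, 190 and 187 TPM against 155, 148 and 146 TPM and fell (-0.35, SE 0.071, adjusted p = 0.0143). MLX (adjusted p = 0.066 to 0.101) and MYC (0.0528 to 0.083) were not called without siCtrl 3 or any 1 siNUDT5 library, and TXNIP (0.0816 to 0.0957) not without siCtrl 3, siNUDT5 1 or siNUDT5 2. HIF1A overlapped between groups, with 314 ± 83.9 against 334 ± 24.9 TPM (0.12, adjusted p = 0.677).

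HIF-1 binds the hypoxia response element, and ACGTG is a form of its core. Other forms of the core were not searched. MYC and the MLX complexes bind E-boxes such as CACGTG, which contains ACGTG on both strands. Both words were searched on both strands in RefSeq promoters of GRCh38.p14, 300 bases from 250 before to 50 after each start. ACGTG was in 24 of 66 promoters of the pathway genes (36.4%), against 21.4% of all 35116 promoters and 25.3% of those of tested genes. CACGTG was in 9 of the 66 (13.6%), against 7.3% and 9.2%. By gene, 35 of the 38 matched the table (SLC2A3, SLC16A1 and PFKFB2 did not), and ACGTG was in 6 of the 9 matched genes that passed the test and in 14 of the 26 that did not. CACGTG was in 1 of these 9, PDHB, and in 8 of these 26. Genes with several listed starts had more chances to hold a word, and overlapping promoters of a gene can count the same word again. No share by gene was computed for all tested genes, so the shares by promoter are no yardstick for the counts by gene. A match is a description of letters, not a site of binding.

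The 250 bases before the start are shown for 4 genes past the threshold with 1 listed start each that hold the word, 3 that rose and PDK3, which fell, to show that it occurs in both. They are printed 5′ to 3′ on the strand of the gene, and capitals mark ACGTG, its complement CACGT, or the overlap of both in CACGTG.
ENO2, chr12:6914330-6914579 (+): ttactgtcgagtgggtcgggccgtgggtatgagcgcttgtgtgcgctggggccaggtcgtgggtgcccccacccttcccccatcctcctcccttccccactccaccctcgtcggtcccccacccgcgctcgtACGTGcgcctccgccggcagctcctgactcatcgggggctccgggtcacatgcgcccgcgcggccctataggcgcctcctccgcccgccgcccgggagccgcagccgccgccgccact
PGK1, chrX:78103998-78104247 (+): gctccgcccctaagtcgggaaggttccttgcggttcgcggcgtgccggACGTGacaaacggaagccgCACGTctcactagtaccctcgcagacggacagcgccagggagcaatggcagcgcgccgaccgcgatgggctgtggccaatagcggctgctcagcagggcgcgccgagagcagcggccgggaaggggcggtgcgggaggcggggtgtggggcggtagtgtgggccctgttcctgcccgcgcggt
PDHB, chr3:58433833-58434082 (-): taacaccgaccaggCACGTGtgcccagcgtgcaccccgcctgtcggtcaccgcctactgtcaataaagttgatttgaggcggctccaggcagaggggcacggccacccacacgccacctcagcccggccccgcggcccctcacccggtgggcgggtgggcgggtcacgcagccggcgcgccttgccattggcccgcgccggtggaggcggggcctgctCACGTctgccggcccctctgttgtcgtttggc
PDK3, chrX:24465036-24465285 (+): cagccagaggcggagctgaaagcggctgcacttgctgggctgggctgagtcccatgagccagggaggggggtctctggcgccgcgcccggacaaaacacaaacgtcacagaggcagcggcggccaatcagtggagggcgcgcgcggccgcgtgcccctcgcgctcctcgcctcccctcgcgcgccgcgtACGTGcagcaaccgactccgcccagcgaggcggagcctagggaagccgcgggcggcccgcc
ENO2, whose log2 change was 0.57, and PDK3, whose change was -0.45, each hold the word once. PGK1 and PDHB hold it more often, and PDHB holds the full E-box.

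Words of 7 bases in 3′ UTRs that an earlier pass over these same changes had picked were also searched in the longest annotated 3′ UTR (GENCODE 29), as a description only. AAGACTT was in 17.19% of 11454 tested genes (median log2 change -0.01 with it, 0.06 without) and AGACTTA in 11.24% (-0.03 and 0.06). GATTAAC was in 6.19% (0.14 and 0.04). Of the pathway genes AAGACTT was in PFKFB2, PGK1, PDK1 and PDHA1, AGACTTA in SLC2A3 and PDK1, and GATTAAC in PFKFB2 and LDHB. The first such site of the 4 genes past the threshold that hold a word is shown with 10 bases on either side and the word in capitals.
SLC2A3: ccccaacctcAGACTTAccaggaagca
PFKFB2: ttggtaatggAAGACTTtttgctgtgg
PGK1: caaaatctctAAGACTTtgtaagtctg
LDHB: actacaatgtGATTAACtcgagccttt
SLC2A3 and PGK1 rose while holding a word whose carriers had the lower median, and PFKFB2 fell while holding both kinds. The 3′ UTRs of PGAM1, HK1, ENO2, PFKM, PDHB, PGM1 and PDK3 hold none of the 3 words.

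Stability over the 16 alternative settings set 4 genes apart from the other 7 that passed. SLC2A3 stayed past the threshold in all 16, with log2 changes from 1.51 to 1.80 and adjusted p of at most 0.00167. PGAM1 did so from 1.68 to 1.76, with adjusted p of at most 0.00125. HK1 ranged from 0.42 to 0.51 with adjusted p of at most 0.0487, and ENO2 from 0.51 to 0.64 with adjusted p of at most 0.0473. PFKM, PGK1, LDHB, PDHB, PGM1, PFKFB2 and PDK3 kept their direction in all 16 and lost the call in several.

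**Figure D5:**
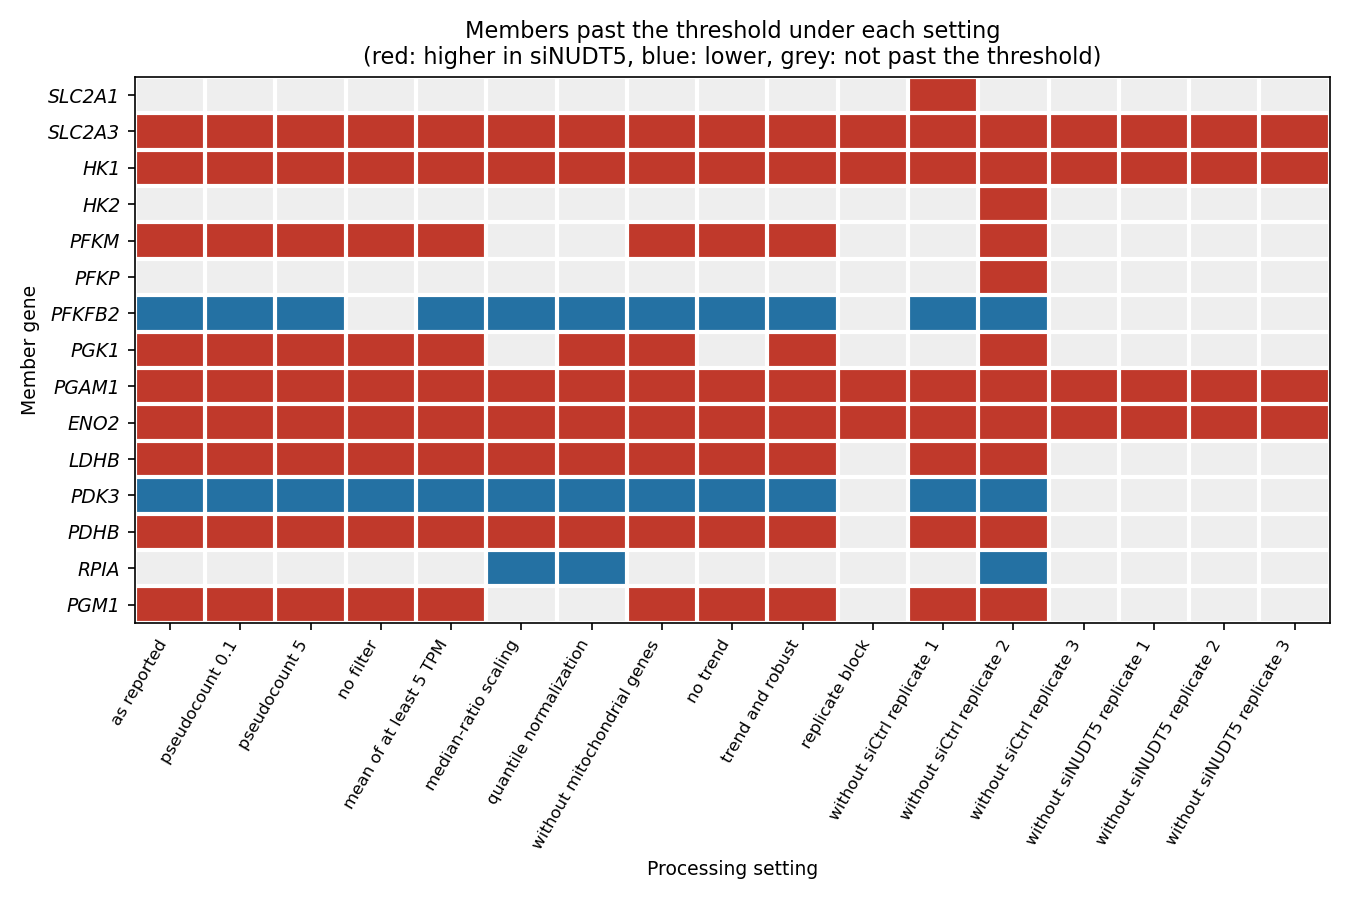
Pathway genes (vertical axis) that passed the threshold under at least 1 processing setting (horizontal axis), with red for higher in siNUDT5, blue for lower and grey for not past the threshold. The rows of SLC2A3, HK1, PGAM1 and ENO2 are red throughout, and the cells of PFKM, PGK1, LDHB, PDHB, PGM1, PFKFB2 and PDK3 are grey where siCtrl 3 or a siNUDT5 library was left out and under the replicate block. SLC2A1, HK2, PFKP and RPIA are grey in most settings.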

How the data were processed

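Strand-specific mRNA libraries (KAPA mRNA HyperPrep) were made from U2OS cells, with groups and replicate numbers taken from the sample titles. The table deposited by the authors gives TPM per gene symbol, summing to 1000000 in each of the 6 libraries. STAR 2.7.3a, DESeq2 1.22.1 and hg19 are named, without roles, in the submitters' processing notes, and how TPM were made was not given in the sources used here. TPM are not counts, so no count model was run.

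Log2(TPM + 1) was fitted with limma 3.58.1 (lmFit, eBayes with trend) in R 4.3.3, two-sided, over the 12236 genes at 1 TPM or more on average, and tested on simulated data. This scale understates changes of low genes. Intervals are 95%. Shares, sums and exact tests used Python 3.11.15, pandas 2.3.3, numpy 2.4.6 and scipy 1.17.1, and figures matplotlib 3.10.9. Relative depth came from genes under 0.3 TPM, where 72.0% to 81.5% of ratios to siCtrl 1 were whole-number ratios (numbers to 5, tolerance 0.1%). RefSeq and GENCODE sequences were matched by symbol, and coordinates are of GRCh38.p14, not of the build of the table.

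The members and lists were chosen with earlier results of these data known. All 38 members are accounted for. Members past the threshold and their isozyme families are given by library, the rest by range with the highest of each step, and each gene past the threshold in the other pathway and regulator lists is named. As alternatives, other pseudocounts (0.1 and 5), filters (none, or 5 TPM on average), 2 other scalings, other variance priors, the replicate block and the removal of 13 mitochondrial genes or of each library in turn were tried.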

Additional observations from a re-analysis of the deposited data

How the results depend on the processing

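The numbers of replicates are shared between groups, but same-numbered libraries did not deviate together (correlations of -0.426, -0.538 and -0.045), and no library correlated best with its own number, so the numbers were not taken as pairs. With the replicate block, 4 members rose and 0 fell by limma (2 lower at an unadjusted p under 0.05), and 486 and 253 of all genes did. Without a filter 1 member fell. Under quantile normalization 965 of all genes fell. Leaving out 1 library gave 4 to 11 members higher and 0 to 3 lower, and 520 to 2672 of all genes higher and 213 to 1132 lower.

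Changes near 0 turned sign, none of them past the threshold. ENO3 was at -0.038 under median-ratio scaling, -0.072 under quantile normalization and -0.003 without mitochondrial genes, PKM at -0.03 under median-ratio scaling and LDHA at 0.073 under quantile normalization. Leaving out each library gave ranges of -0.093 to 0.022 for PFKFB4, -0.027 to 0.142 for ALDOA, -0.017 to 0.167 for TPI1, -0.158 to 0.003 for GAPDH, -0.086 to 0.155 for ENO3, -0.067 to 0.098 for PKM, -0.033 to 0.01 for LDHA, -0.231 to 0.019 for PDK1, -0.145 to 0.005 for TKT, -0.023 to 0.206 for RPE and -0.023 to 0.211 for SLC16A1. The cause was not tested. TPM keep no total depth, so no counting error can be given.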

Other observations

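Outside the pathway genes described above, some genes of glycogen and pyruvate use had groups that did not overlap without passing the limma test. They were chosen after their values were seen. Others, such as UGP2, GBE1, PYGL, MPC1 and MPC2, had groups that overlapped. Over all genes tested, the groups of 37.3% did not overlap. GYS1, the muscle-type glycogen synthase, had 32.6 ± 4.62 TPM in siCtrl and 40.9 ± 2.12 TPM in siNUDT5 (SD, n = 3 each; log2 change 0.32, limma adjusted p = 0.0979). PYGB, the brain-type glycogen phosphorylase, had 63.1 ± 6.79 against 72.6 ± 3.37 TPM (0.21, adjusted p = 0.202). PC, the pyruvate carboxylase, had 8.19 ± 0.959 against 10.9 ± 1.5 TPM (0.37, adjusted p = 0.0917). PGM5, a relative of the phosphoglucomutases without their activity, had 8.10 ± 1.42 against 5.68 ± 0.642 TPM (-0.44, adjusted p = 0.0745). PPARGC1A, a coactivator of mitochondrial genes, was under the filter on low values, with 0.309, 0.295 and 0.307 TPM against 0.692, 0.961 and 0.718 TPM, and was not tested.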
